A study of Mus musculus with 6 samples.

Results

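The 10 genes described here belong to the RAS-MAPK pathway. They comprise 2 drivers, Hras and Braf, and 8 feedback regulators and targets, namely Dusp4, Dusp6, Spry2, Spry4, Spred1, Etv4, Etv5 and Phlda1. The members were taken from the deposited gene count table by their gene names, and each name matched 1 row. They are 10 of 43346 genes in the table, and all 10 were among the 18359 genes that passed the filter on low counts.

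RNA was sequenced from liver tumours that had been induced with diethylnitrosamine (DEN), a liver carcinogen that needs activation by hepatocytes. All tumours came from mice that overexpress SULF2, labelled SULF2-TTR, so the controls carry the same transgene and the same carcinogen. SULF2 is an extracellular sulfatase that removes sulfate groups from heparan sulfate. There were 3 libraries with wild-type Gli1 (WT) and 3 with Gli1 knocked out (KO), and the comparison asks what loss of the transcription factor GLI1 changed in such tumours. The labels give no age, sex or strain, and name no promoter beyond the letters TTR. They also leave unsaid whether any 2 tumours shared an animal, and p-values therefore measure only the spread between these samples. No normal liver or tumour without the transgene is among the samples analysed here.

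RAS proteins are membrane-bound switches that pass growth factor signals to RAF kinases such as BRAF, which activate MEK and then ERK kinases. Active ERK induces a set of genes whose products turn the pathway down again. These include dual-specificity phosphatases (DUSP), which remove phosphate from MAP kinases, and the Sprouty (SPRY) and SPRED proteins, which act at the level of RAS and RAF. ERK signalling also raises transcription factors of the ETS family such as ETV4 and ETV5. The RNA of these genes is therefore widely used as a readout of pathway output. In mouse liver tumours induced with DEN, activating mutations of Hras or Braf are common drivers. A gene count shows the amount of RNA and not the sequence of the allele, so whether these tumours carried such mutations was not tested.

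The libraries held 75205624 to 132979502 reads in genes. Gli1 had 10, 20 and 7 reads in WT replicates 1, 2 and 3 and 4, 3 and 3 in the KO replicates, which is the direction of the labels (log2 fold change -2.24 ± 0.65, SE, n = 3 per group, edgeR quasi-likelihood adjusted p = 1.00). Hepatocyte RNA was abundant in all 6 libraries, with Alb at 114643 to 167494 CPM (read counts scaled to a common library size). WT replicate 3 and KO replicate 1 stood apart from the rest although they differ in genotype. Their deviations from the mean of their own genotype had a correlation of 0.51 across genes, and they were the 2 highest libraries for 15.0% of all genes tested, more than any other pair. Genotype differences of the members, the pathway lists, the spread between tumours and the likeness to Dusp6 are given with these libraries first and then without them.

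The sequences below are the 250 bases before the transcription start of Dusp6, the member with the highest level per length and a wide spread between tumours, and of Braf, a driver with a narrow spread. Both are from RefSeq on GRCm38.p6, and the set of promoters searched here held an entry for 6 of the 10 members. The set, like the windows counted for comparison below, did not cover every chromosome. A missing entry can therefore reflect that gap, and whether RefSeq itself lacks the other members was not tested. The Dusp6 window is chr10:99262981-99263230 on the plus strand and the Braf window is chr6:39725464-39725713 on the minus strand, each printed 5′ to 3′ in the direction of the gene. Capitals mark matches, on either strand, to any of 5 motifs. The first core motif of ETS factors was searched as CCGGAA, a second form of that core was searched as CGGAAG, and a further form of the same core was searched as AGGAAG. The AP-1 motif was searched as TGANTCA, and the cAMP response element, to which CREB binds, was searched as TGACGTCA.
Dusp6: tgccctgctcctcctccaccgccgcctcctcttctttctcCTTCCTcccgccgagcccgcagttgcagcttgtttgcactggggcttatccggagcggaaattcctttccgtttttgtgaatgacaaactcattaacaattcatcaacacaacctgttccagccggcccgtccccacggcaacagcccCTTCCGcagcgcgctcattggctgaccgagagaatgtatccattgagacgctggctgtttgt
Braf: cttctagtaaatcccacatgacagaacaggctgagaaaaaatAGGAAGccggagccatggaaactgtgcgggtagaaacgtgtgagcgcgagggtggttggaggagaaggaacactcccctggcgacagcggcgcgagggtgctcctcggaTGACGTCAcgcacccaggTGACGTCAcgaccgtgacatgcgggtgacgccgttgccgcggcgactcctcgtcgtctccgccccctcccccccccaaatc
Dusp6 held 1 match to AGGAAG and 1 match to the second form, both on the strand opposite to the gene, the latter 62 to 57 bases before the start. Braf held 1 match to AGGAAG and 2 matches to the cAMP response element. Of the other members with an entry, Hras held 1 match to the first form and 1 to AGGAAG, Spred1 held 1 match to the second form, and the windows of Spry2 (1) and Etv5 (2) held 0 matches. The bases after the Spred1 window, which ends at 117121070, were not found in a GENCODE transcript of that gene. The same held for the second Etv5 window. Among 32851 windows of the same length, the form AGGAAG was present in 29.5%, while the second form, CGGAAG, was present in 13.6% and the first form, CCGGAA, was present in 12.0% of all windows. The AP-1 motif was present in 6.75% and the cAMP response element in 1.55%. The first and second forms of the ETS core share letters, and their matches can overlap. A match describes letters in this window and does not show that a factor binds there.

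None of the members differed between genotypes beyond the spread between tumours. In the edgeR quasi-likelihood test, 0 of 10 members passed a false discovery rate (FDR) of 0.05, against 0% of all 18359 genes tested. At an unadjusted p under 0.05 there were also 0 of 10, against 3.62% of all genes (665 genes). DESeq2, run without the low-count filter, called 64 of 28227 genes, where edgeR without that filter called 0 of 28227. On the 18359 filtered genes limma voom called 0. None of these called a member. Of the 10 members, 4 had a log2 fold change (KO minus WT) above 0, compared with 48.2% of all genes. Their median was -0.07, against -0.01 over all genes, and single values ran from -0.34 to 0.57. WT and KO tumours overlapped in all 10 members, whereas the genotypes did not overlap for 8.11% of all genes. Adjusted p was 1.00 for each member, and unadjusted p ran from 0.208 to 0.983. For single members, exact permutation of their CPM (two-sided) gave p from 0.3 to 1, where 0.1 is the smallest that 3 against 3 samples allow.

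The 8 feedback and target genes differed between tumours of one genotype by more than the median gene, with SDs of log2 CPM of 0.68 to 1.94 against 0.38. Dusp4, Dusp6, Spry2, Spry4, Spred1, Etv4 and Etv5 all had their 2 highest levels in WT replicate 3 and KO replicate 1. This held for 7 of 10 members, compared with 15.0% of all genes tested, a pattern that was chosen after the values were seen. Hras, Braf and Phlda1 did not share it. With SEs of 0.45 to 1.24 on the log2 scale for the 8 feedback and target genes, genotype differences of that size were not detectable. The plot of CPM by library shows every value.

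**Figure D1:**
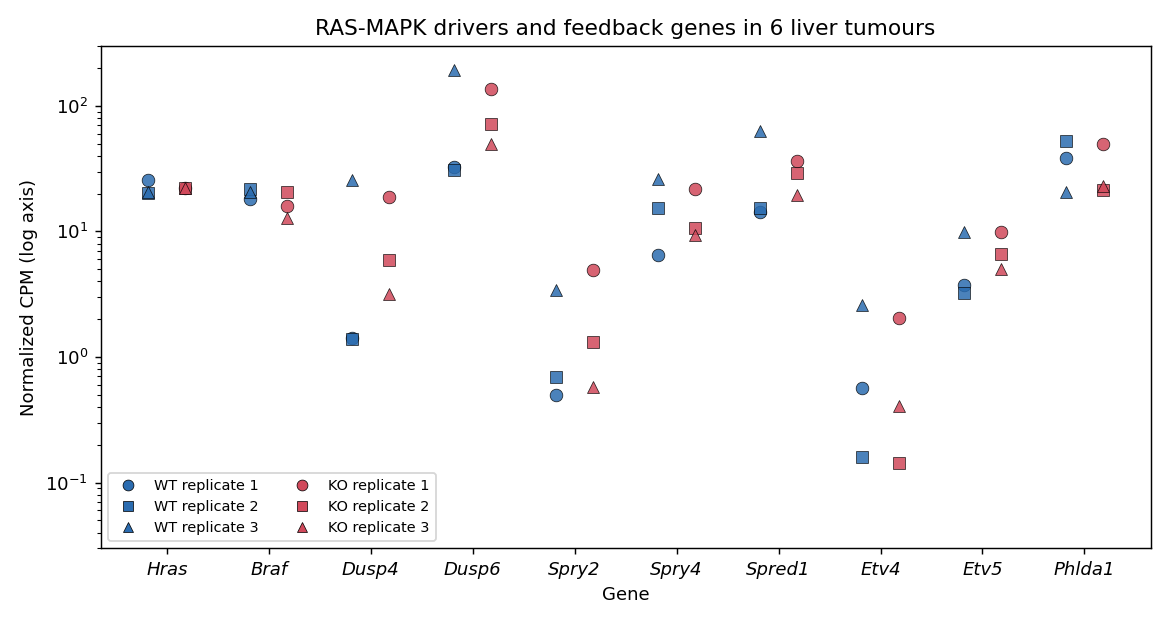
Normalized CPM (log axis) of the 10 members in each of the 6 tumour libraries. Colour gives the genotype and the marker shape the replicate number, which does not pair the genotypes. WT replicate 3 (blue triangle) and KO replicate 1 (red circle) are the highest points for Dusp4, Dusp6, Spry2, Spry4, Spred1, Etv4 and Etv5, while Hras and Braf form narrow groups.

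Hras (ENSMUSG00000025499, chromosome 7, 141189105 to 141194005, minus strand) encodes a RAS GTPase at the top of the cascade. Its normalized CPM, which are CPM on library sizes scaled by the trimmed mean of M values (TMM), were 25.7, 20.4 and 20.5 in WT replicates 1, 2 and 3 and 22.2, 22.1 and 22.4 in the KO replicates. All 6 tumours were within 1.26-fold of each other, and the KO values lay inside the WT range. Between genotypes it differed by a log2 fold change of 0.0046 ± 0.15 (SE over 3 tumours per genotype). The SD of log2 CPM between tumours of one genotype was 0.13, lower than in all but 7.35% of the genes tested.

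Braf (ENSMUSG00000002413, chromosome 6, 39603237 to 39725463, minus strand) encodes the RAF kinase that RAS activates. WT tumours had 18.0, 21.9 and 20.6 CPM and KO tumours 15.9, 20.7 and 12.8. The lowest pair of tumours were both KO, but KO replicate 2 exceeded 2 of the 3 WT tumours. The log2 fold change of -0.29 ± 0.21 had the smallest unadjusted p of the members (0.208 by edgeR). Ndufb2 overlaps Braf on the opposite strand, and no source used here gives the strand setting of the counting, so reads of the overlapping stretch may not be told apart.

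Dusp6 (ENSMUSG00000019960, chromosome 10, 99263231 to 99267488, plus strand) encodes a cytoplasmic phosphatase that acts on ERK. WT tumours had 32.5, 31.0 and 191 CPM and KO tumours 136, 72.3 and 49.96. WT replicate 3 was the highest tumour and the other WT tumours the lowest, with all KO tumours between them. WT averaged 84.9 ± 92.1 CPM and KO 86.0 ± 44.4 (SD, n = 3 each), and the log2 fold change was 0.02 ± 0.78. The within-genotype SD of 1.18 on the log2 scale exceeded that of 91.6% of genes tested.

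Dusp4 (ENSMUSG00000031530, chromosome 8, 34807297 to 34819894, plus strand) encodes a nuclear phosphatase of the same family. WT tumours had 1.42, 1.40 and 25.8 CPM and KO tumours 19.0, 5.96 and 3.17. The tumours took the same order as for Dusp6, over an 18.4-fold range. The log2 fold change was -0.03 ± 1.24, and the within-genotype SD of 1.94 was the largest of the 10 members.

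Spry2 (ENSMUSG00000022114, chromosome 14, 105891949 to 105896819, minus strand) and Spry4 (ENSMUSG00000024427, chromosome 18, 38586268 to 38601268, minus strand) encode Sprouty proteins, which dampen receptor tyrosine kinase signalling. For Spry2, WT tumours had 0.50, 0.69 and 3.39 CPM and KO tumours 4.91, 1.32 and 0.58. It was the member with the most positive log2 fold change, 0.57 ± 1.00, and the only one of the 7 with its highest level in KO replicate 1. Its level was low, and 40 reads in WT replicate 1 give a 95% exact Poisson interval of 0.36 to 0.68 CPM, which covers counting error only.

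For Spry4, WT tumours had 6.45, 15.3 and 26.2 CPM and KO tumours 21.6, 10.6 and 9.42. WT replicate 2 ranked above both KO replicates 2 and 3 for this gene, which it did not for Dusp4, Dusp6, Spry2, Spred1, Etv4 or Etv5. The log2 fold change was -0.21 ± 0.54.

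Spred1 (ENSMUSG00000027351, chromosome 2, 117121374 to 117182279, plus strand) encodes a protein that brings the RAS-inactivating protein neurofibromin to the membrane. WT tumours had 14.2, 15.5 and 62.9 CPM and KO tumours 36.7, 29.1 and 19.6. All KO tumours again lay between WT replicate 3 and the other WT tumours, and the log2 fold change was -0.12 ± 0.61.

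Etv5 (ENSMUSG00000013089, chromosome 16, 22381309 to 22439719, minus strand) and Etv4 (ENSMUSG00000017724, chromosome 11, 101769742 to 101785371, minus strand) encode closely related ETS transcription factors. For Etv5, WT tumours had 3.73, 3.21 and 9.94 CPM and KO tumours 9.87, 6.64 and 4.996. WT replicate 3 and KO replicate 1 were nearly equal, and the log2 fold change was 0.35 ± 0.50. Etv4 was the member with the lowest level, at 0.56, 0.16 and 2.57 CPM in the WT tumours, against 2.05, 0.14 and 0.41 in the KO tumours. Its pair of highest tumours had 229 and 216 reads against 12 to 45 in the rest, and the 95% exact Poisson interval of KO replicate 1 (1.79 to 2.34 CPM) lay above that of WT replicate 1 (0.41 to 0.75 CPM), the next tumour. The log2 fold change was -0.34 ± 1.22.

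Phlda1 (ENSMUSG00000020205, chromosome 10, 111506286 to 111508645, plus strand) encodes a pleckstrin homology-like protein that is often counted among ERK-induced genes. WT tumours had 38.3, 52.7 and 20.8 CPM and KO tumours 50.03, 21.6 and 22.9. WT replicate 3, the top tumour for Dusp4, Dusp6, Spry4, Spred1, Etv4 and Etv5, was the lowest for Phlda1. The log2 fold change was -0.24 ± 0.45. A long non-coding RNA gene on the opposite strand, Gm28592, overlaps Phlda1 and reached 20.2, 28.6 and 11.2 CPM in the WT tumours, against 26.3, 12.3 and 13.9 in the KO tumours. It took the same order of tumours as Phlda1, so the Phlda1 counts are uncertain to the extent that reads of both strands were mixed.

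Compared per kilobase of the length in the table and averaged over the 6 tumours, Dusp6 had the highest level at 30.6 CPM per kb. It was followed by Phlda1 at 15.6, Hras at 5.95, Spred1 at 4.37, Dusp4 at 3.45 and Spry4 at 3.26 CPM per kb. Etv5 had 1.56, Braf 1.32, Spry2 0.91 and Etv4 0.32 CPM per kb. Neighbours in this order overlapped in their ranges over the tumours, except that the lowest Phlda1 value (9.42) was above the highest Hras value (6.88). In WT replicate 3 Dusp6 reached 68.4 CPM per kb.

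Among the 10 members, the 4 genes Dusp4, Dusp6, Spred1 and Etv5 had one order of tumours at the top, WT replicate 3, then KO replicates 1, 2 and 3, with WT replicates 1 and 2 lowest. The order was read off after the values were seen, and that of the upper libraries was present in 4 of 10 members and in 1.56% of all genes tested (286 genes). Over the 8 feedback and target genes, the median level relative to each gene's mean was 1.34 log2 units in WT replicate 3 and 0.88 in KO replicate 1. It was 0.07 in KO replicate 2, -0.46 in KO replicate 3, -0.87 in WT replicate 2 and -0.95 in WT replicate 1. The drivers stayed between -0.49 and 0.28 log2 units in all 6 tumours. KO replicate 1 was the only library in which all 8 feedback and target genes exceeded their means.

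**Figure D2:**
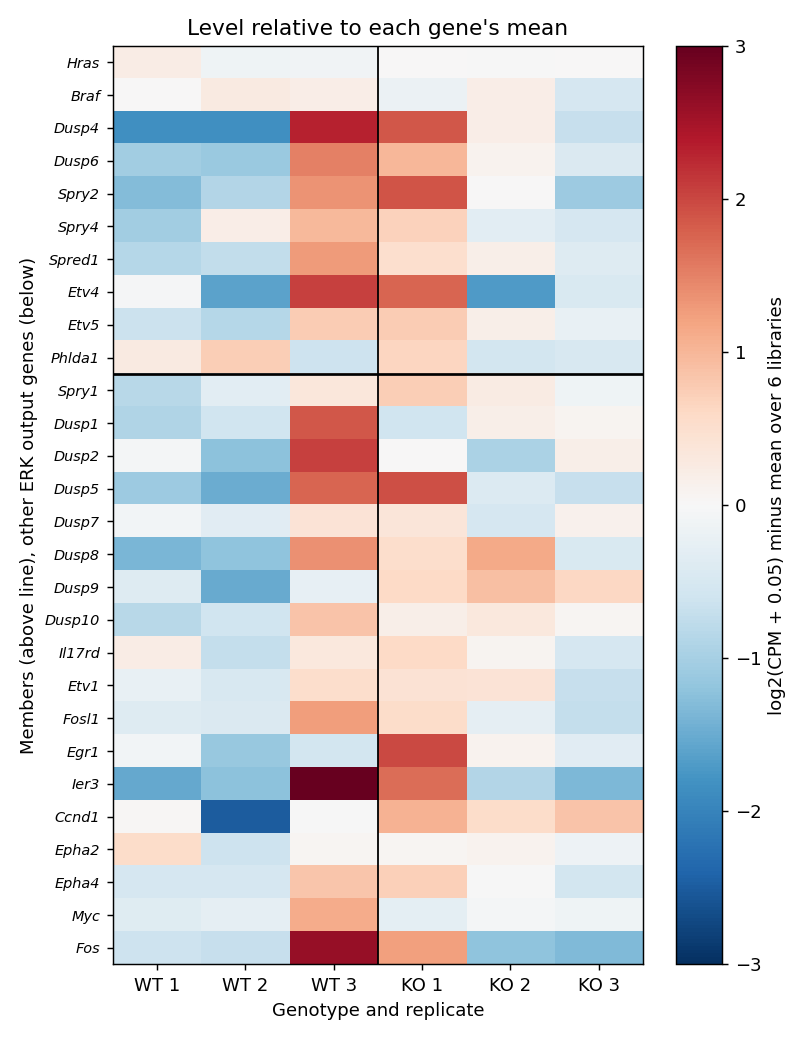
Level of the 10 members (above the line) and of 18 further genes listed as ERK outputs (below) in each library, as log2(CPM + 0.05) minus the mean of the gene over 6 libraries. Red is above and blue below the mean, and the scale ends at 3 log2 units. The columns of WT replicate 3 and KO replicate 1 are red for 7 of the 10 members, while Hras and Braf are pale throughout.

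In the rest of the pathway, RNA of the signalling cascade varied little and RNA of ERK outputs varied much. The core cascade list holds 17 genes of the cascade from RAS to ERK, with its adaptors, the exchange factors Sos1 and Sos2, the phosphatase Ptpn11 and kinases that ERK activates. Of these, 17 were tested and 0 passed FDR 0.05 by edgeR, with 0 at an unadjusted p under 0.05. Their median within-genotype SD was 0.15 log2 units, against 0.38 over all genes and 1.04 over the 8 feedback and target members. Counting error adds to this SD for genes with few reads, such as Etv4. The smallest p in this list belonged to Rps6ka1, a kinase that ERK activates, at 0.39 ± 0.25, and to Mapk3, which encodes ERK1, at 0.32 ± 0.22 (log2 fold change ± SE, edgeR adjusted p = 1.00 each).

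Among 12 genes that restrain RAS, 0 passed in either direction, with 0 at an unadjusted p under 0.05, a median log2 fold change of -0.11 and a median within-genotype SD of 0.37. The RAS GTPase-activating proteins Dab2ip (0.42 ± 0.20) and Rasal2 (-0.38 ± 0.26) had the smallest p. Spred2, a close relative of Spred1 that was picked out after its values were seen, had 9.84, 8.72 and 24.2 CPM in the WT tumours, against 24.0, 17.6 and 9.74 in the KO tumours, again highest in WT replicate 3 and KO replicate 1.

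Of 18 further ERK output genes, 0 passed FDR 0.05 by edgeR and 1 had an unadjusted p under 0.05, against 3.62% of all genes. Their median log2 fold change was 0.09 and their median within-genotype SD 0.81. That gene was Dusp9, a phosphatase of the DUSP6 type, with 0.49, 0.20 and 0.54 CPM in the WT tumours, against 1.02, 1.27 and 1.04 in the KO tumours. The level of Dusp9 was low in every tumour. The genotypes did not overlap for 2 of the 18 genes, against 8.11% of all genes. Dusp9 was among them, with all KO tumours above all WT tumours. Its log2 fold change of 1.43 ± 0.46 did not pass adjustment (edgeR adjusted p = 1.00). Egr1, an immediate-early transcription factor, came next at 1.48 ± 0.65, with 314 CPM in KO replicate 1 and 36.0 to 85.3 CPM elsewhere. WT replicate 3 and KO replicate 1 were the 2 highest libraries for 9 of the 18 genes, compared with 15.0% of all genes.

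Some of these outputs were chosen here after their values were seen. The phosphatase gene Dusp5 had 3.95, 3.01 and 28.8 CPM in the WT tumours, against 32.7, 6.43 and 5.22 in the KO tumours. The early response gene Ier3 had 1.84, 2.29 and 53.7 CPM in the WT tumours, against 17.5, 2.95 and 2.11 in the KO tumours. Both had their highest levels in WT replicate 3 and KO replicate 1, as Dusp4 did. The immediate-early genes Egr1 and Fos differed from one another, since Fos was highest in WT replicate 3 (32.4 CPM, and 12.4 in KO replicate 1) whereas Egr1 was not raised there (54.2 CPM). Ccnd1, which encodes cyclin D1, had 103, 17.8 and 100.5 CPM in the WT tumours, against 208, 148 and 181 in the KO tumours, so the genotypes did not overlap, and its log2 fold change of 1.28 ± 0.61 did not pass (edgeR adjusted p = 1.00).

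**Figure D3:**
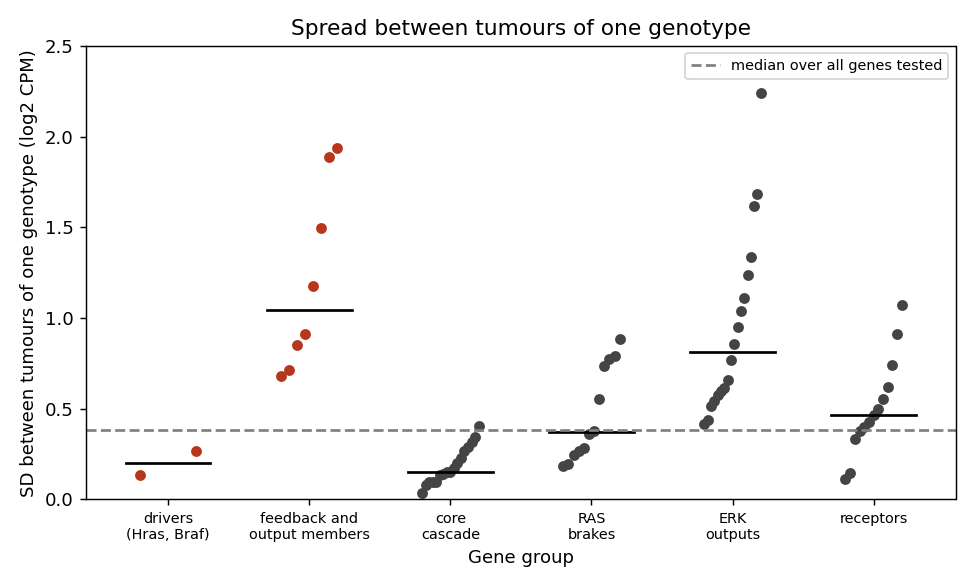
SD of log2 CPM between tumours of one genotype, pooled over WT and KO, for each gene (points) in 6 groups, with the median of each group (solid bars) and of all genes tested (dashed line, 0.38). The 8 feedback and target members lie above the dashed line, at 0.68 to 1.94, and Hras and Braf below it.

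Of 13 receptor genes upstream of RAS, 0 passed FDR 0.05 by edgeR and 1 had an unadjusted p under 0.05, against 3.62% of all genes. That gene was Klb, which encodes beta-Klotho, a liver co-receptor for FGF hormones, at 26.2, 30.7 and 27.3 CPM in the WT tumours, against 16.5, 19.2 and 20.8 in the KO tumours (-0.57 ± 0.15, edgeR adjusted p = 1.00). The platelet-derived growth factor receptor gene Pdgfrb was next at 0.84 ± 0.36. By the rule for genes most like Dusp6, log2 CPM centred on the mean of each gene were compared over the 6 libraries for 10151 other genes with a mean of at least 5 CPM. The FGF receptor gene Fgfr2 was the nearest, with a root mean square difference of 0.12 log2 units, where the median gene was at 1.03. Fgfr2 had 22.9, 22.1 and 116 CPM in the WT tumours, against 95.5, 49.2 and 39.9 in the KO tumours. It took the same order of tumours as Dusp6, and its log2 fold change between genotypes was 0.19 ± 0.72.

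The next nearest genes were Frmd6 (0.16), the AP-1 gene Jun (0.17), Lrrc16a (0.19) and the TGF-beta receptor gene Tgfbr2 (0.20). Of the other members, Spred1 was closest to Dusp6 at 0.29, followed by Etv5 at 0.39, Spry2 at 0.49, Spry4 at 0.62 and Dusp4 at 0.67. Etv4 was at 1.02 and Phlda1 at 1.31, beside 1.04 for Hras and 1.02 for Braf, by this measure, which counts differences in amplitude as well as in direction. The likeness was searched among 10151 genes over only 6 libraries and is given as a description.

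**Figure D4:**
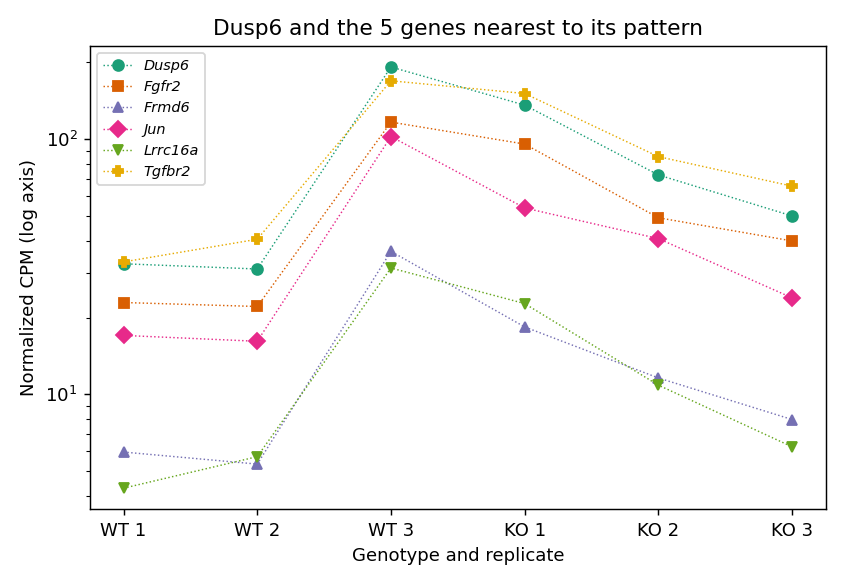
Normalized CPM (log axis) of Dusp6 and of the 5 genes with the smallest root mean square difference from its centred log2 CPM, by library. Dotted lines only join the points of one gene. All 6 genes are highest in WT replicate 3, next in KO replicate 1, and lowest in WT replicates 1 and 2.

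The median log2 fold change of the members moved furthest when WT replicate 3 or KO replicate 1 was left out. Each other library, left out alone, also changed the direction of some member. With WT replicate 1 left out the median was -0.37 and Dusp6 was -0.37. Dusp6 was -0.38 when WT replicate 2 was dropped. Dusp4 rose to 0.22 when KO replicate 2 was dropped and to 0.39 when KO replicate 3 was dropped. Without WT replicate 3, 7 of 10 members were positive, with a median log2 fold change of 1.00. Dusp4 was then at 2.73 ± 0.83, Dusp6 at 1.44 ± 0.44, Spred1 at 0.94 ± 0.28 and Etv5 at 1.05 ± 0.34. These 4 members had an unadjusted edgeR p under 0.05, all higher in KO, where 9.47% of all genes did in either direction and 5.37% as higher in KO. None of them passed the adjustment (smallest adjusted p of a member 0.466). Without KO replicate 1 the direction was the opposite, with 8 of 10 members negative and a median of -0.56, and 0 members had an unadjusted p under 0.05 against 2.76% of genes. These libraries were singled out as the highest for 7 members. Leaving out the highest tumour of a genotype lowers the level of that genotype. For those 7 members the shifts therefore follow from the choice, and the counts are given as a description.

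Leaving out both libraries, an alternative chosen after the values were seen, kept 2 tumours in each genotype. Dusp4 was then at 1.70, Dusp6 at 0.95, Etv5 at 0.75, Spred1 at 0.72 and Phlda1 at -1.03. These 5 had an unadjusted edgeR p under 0.05, compared with 6.84% of all genes, and 0 passed the adjustment (smallest adjusted p of a member 0.564). The libraries left out were the highest for Dusp4, Dusp6, Etv5 and Spred1, so a smaller spread was built in. For Phlda1 they were the lowest WT tumour and the highest KO tumour. The count is therefore given as a description. Hras and Braf moved little in any of these fits, and Braf stayed between -0.48 and -0.14 whichever single library was left out.

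The spread and the lists were also taken without WT replicate 3 and KO replicate 1. Without both, the median within-genotype SD of the 8 feedback and target members was 0.37 log2 units, against 0.28 over all genes. The libraries had been picked as the highest for 7 of these 8 genes, so a smaller SD without them was built in. No other pair was left out. In the fit without both, the median SD was 0.33 for the 18 ERK outputs and 0.14 for the core cascade. Of the 18 ERK outputs, 4 had an unadjusted edgeR p under 0.05 without WT replicate 3, 1 without KO replicate 1 and 5 without both. The shares over all genes in these fits were 9.47%, 2.76% and 6.84%. The median log2 fold change of the ERK outputs was 0.77, -0.18 and 0.34. Of the 13 receptors the counts were 3, 1 and 3. Of the 17 core cascade genes they were 1, 0 and 1, and of the 12 genes that restrain RAS 0 in each. In these fits 0 genes of the lists passed FDR 0.05. WT replicate 3 and KO replicate 1 were also the 2 highest libraries for 9 of the 18 ERK outputs. For such genes, smaller SDs and p-values without them follow in part from the choice. The counts for the lists are therefore given as a description.

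Dusp9 stayed higher in KO, at 1.69 without WT replicate 3, 1.503 without KO replicate 1 and 1.75 without both. Egr1 dropped to 0.43 without KO replicate 1, and Klb was -0.59, -0.48 and -0.50 in the same fits. Rps6ka1 was 0.67 without WT replicate 3 and 0.65 without both, with an unadjusted edgeR p of 0.0113 and 0.0286. Pdgfrb was 1.28 and 1.06 in those fits. Leaving out WT replicate 3 put Fgfr2 at 1.45 ± 0.41, leaving out KO replicate 1 put it at -0.26 ± 0.79, and leaving out both put it at 0.99 ± 0.19. In the same order its rank among genes most like Dusp6 was 1, 3 and 9. Fgfr2 had been picked as nearest to Dusp6 over these same libraries. Both Fgfr2 and Rps6ka1 had their highest levels in WT replicate 3 and KO replicate 1. Their shifts, p-values and ranks without these libraries follow in part from the choice and are given as a description.

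**Figure D5:**
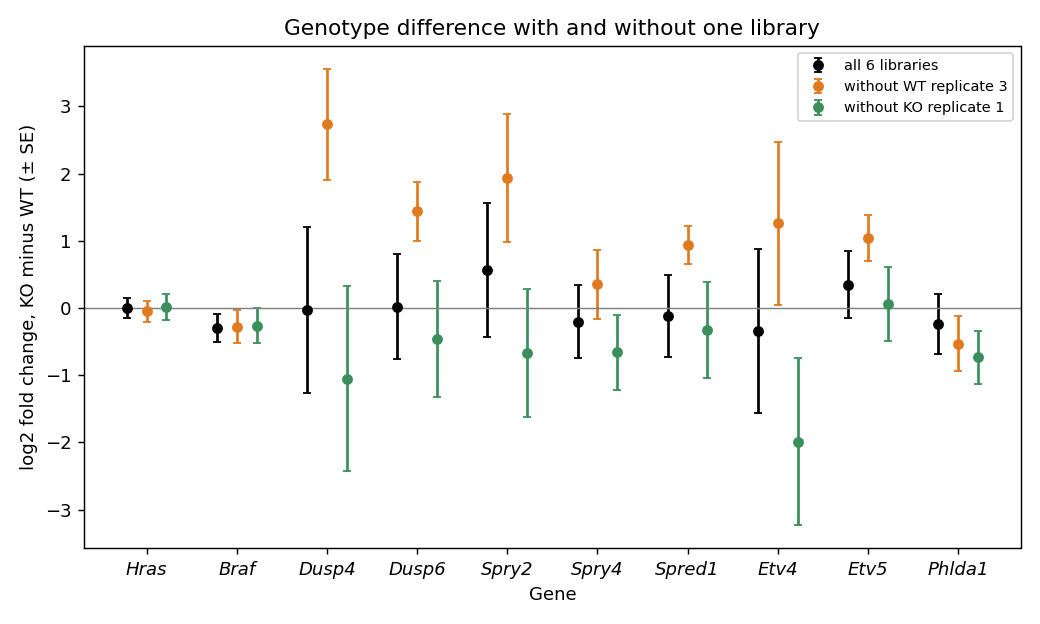
Log2 fold change (KO minus WT) of each member by edgeR, with bars of 1 SE, for all 6 libraries (black), without WT replicate 3 (orange) and without KO replicate 1 (green). The orange and green points of Dusp4, Dusp6, Spry2, Spry4, Spred1 and Etv4 lie on opposite sides of 0, while Hras and Braf hardly move.

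Markers of other cell types also differed between tumours. In bulk tissue, fewer cells of a type and less RNA per cell cannot be told apart. Of the 5 cholangiocyte and progenitor markers, 4 (Krt7, Krt19, Epcam and Sox9) had their highest levels in WT replicate 3 and KO replicate 1. The share over all genes was 15.0%, and this pair of libraries had been chosen after the values were seen. The epithelial adhesion gene Epcam had 4.29 and 3.28 CPM there and 0.21 to 1.10 CPM elsewhere. The summed level of all 5 was 38.8 to 479 CPM in WT and 74.996 to 472 CPM in KO, and KO replicate 3 was as high as WT replicate 3 through Spp1 (465 CPM). The summed level of 6 stellate cell and fibroblast markers was 101 to 224 CPM in WT and 213 to 356 CPM in KO, highest in KO replicate 1. The summed level of 5 cell cycle genes was 8.36 to 40.4 CPM in WT and 13.4 to 89.4 CPM in KO, with KO replicate 3 the highest, where Dusp6 was lower than in the other KO tumours. Endothelial markers summed to 175 to 204 CPM in WT and 118 to 167 CPM in KO, macrophage markers to 65.3 to 177 and 52.8 to 85.7 CPM, lymphocyte markers to 2.42 to 4.88 and 1.21 to 2.00 CPM, and neutrophil markers to 9.13 to 33.2 and 4.39 to 8.21 CPM. All 5 lymphocyte and all 4 neutrophil markers had a log2 fold change (KO minus WT) below 0, and 0 of them passed FDR 0.05. Within each of the other lists the markers did not all go one way. Of the endothelial markers, 4 had a log2 fold change (KO minus WT) below 0, but Pecam1 (0.01) and Cdh5 (0.07) did not. Of the macrophage markers 4 were below 0 and Cd68 (0.20) was above. Of the stellate cell and fibroblast markers 5 were above 0, with Lrat at only 0.05, and Dcn (-0.20) was below. No marker in these lists was at 0 in any library. The part of these cells in the levels of the members was not tested.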

How the data were processed

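For every gene and library the table deposited by the authors holds raw counts of reads beside RPKM values. The submitters' processing notes name bcl2fastq, TopHat2 2.0.6 and HTSeq, without roles, and human builds. The identifiers are nevertheless mouse Ensembl identifiers, and of 42462 shared with GENCODE M21 (GRCm38), 84.2% had the same start with 99.8% starting within 100 kb. Deposited coordinates were therefore taken as GRCm38. The deposited RPKM values rest on a coding length and a library total 12.6 to 19.0% above the summed counts, and were only checked. The main test of the deposited counts was that of edgeR 4.0.16 under R 4.3.3 (filterByExpr, TMM, robust quasi-likelihood test, two-sided, Benjamini-Hochberg over 18359 genes, FDR 0.05). Gli1 did not pass the filter and was tested by adding its row to those kept. Log2 CPM used a prior count of 2. Standard errors are the log2 fold change divided by the square root of F. Alternatives were DESeq2 1.42.0, voom in limma 3.58.1, scaling by RLE or by upper quartiles, other low-count filters, the replicate number as a block and leaving out each library. The members, lists and markers were chosen with earlier results of these data known. From each pathway list the 2 genes of smallest p were named, together with the 5 genes nearest to Dusp6. Some single genes of these lists are not reported here. Same-numbered WT and KO libraries had correlations of deviations of -0.29, 0.18 and -0.34, so the numbers were not taken as pairs.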

Additional observations from a re-analysis of the deposited data

How the results depend on the processing

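No member passed FDR 0.05 under any of the alternatives run. The count of genes past FDR 0.05 was 0 in all of them except DESeq2, which called 64 of 28227 genes and no member. Of 139 single-member values under alternatives, 24 changed direction, 16 of them on leaving out 1 library. Leaving out 1 library at a time, the median log2 fold change of the members ran from -0.56 to 1.00. Hras ran from -0.053 to 0.13, Dusp4 from -1.05 to 2.73, Dusp6 from -0.46 to 1.44, Spry2 from -0.67 to 1.93, Spry4 from -0.66 to 0.35, Spred1 from -0.46 to 0.94, Etv4 from -1.99 to 1.26 and Phlda1 from -0.74 to 0.091, while Braf and Etv5 kept their sign. Without both WT replicate 3 and KO replicate 1 the median was 0.32, and Hras (-0.043), Dusp4 (1.70) and Spred1 (0.72) changed direction, while Phlda1 was -1.03. Dusp4 was 0.0069 with upper-quartile factors and 0.90 with limma voom, and Spred1 was 0.19 with voom. With the replicate number as a block, 0 genes and 0 members passed, and Dusp4 (1.36) and Spred1 (0.26) changed direction. Not every library correlated best with its own number. The cause of these changes of direction was not tested. Etv4 fell below the filter of 1 CPM in 3 libraries and has no value there. At 12 to 45 reads, counting error limits Etv4 in 4 libraries.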
